A study of Rattus norvegicus with 325 samples.

Results

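The genes described here are Mbp, Pmp2, Pmp22, Prx, Mag and Ngfr, 6 genes of Schwann cells and their myelin, out of 17315 gene symbols in the count files. They were picked by symbol, with earlier results of these data known, and each symbol stood on a single line of every file. The libraries came from the diaphragm, gastrocnemius, soleus and tibialis anterior of male Sprague Dawley rats at 7 ages from 6 to 27 months. The rats were bought young from Envigo, aged there and moved to the collecting laboratory some weeks before their tissues were taken. The ages were 6, 9 and 12 months, then 18, 21, 24 and 27 months. A muscle at an age was covered by 12 libraries as a rule. The gastrocnemius had 9 to 12, the diaphragm 11 at 9 months and the tibialis anterior 13 at 21 months. Tissue of a given age was taken on a single day, so age and collection day cannot be told apart, and the labels do not tie libraries to animals. The paper counts a separate animal for each sample of a muscle, so p-values within a muscle measure the spread between rats. Its group sizes mean that the muscles of an age shared rats. Tests between muscles treat all libraries as independent, which ignores this sharing.

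Schwann cells are the glia of peripheral nerve. Those that myelinate wrap a motor or sensory axon in a compact membrane spiral, and those that do not carry small axons or cap the motor endplate. Compact myelin is held together by adhesive and basic proteins. The uncompacted layers beside the axon and on the outer surface carry their own adhesion and scaffold proteins. Schwann cells that lose contact with an axon turn down their myelin genes and express markers of an immature or repair state, Ngfr among them. In a whole muscle all these transcripts come from a small share of the tissue, and in bulk RNA fewer cells and less RNA per cell cannot be told apart.

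Mbp encodes myelin basic protein, which seals the inner faces of the myelin membrane. Pmp2 encodes a fatty acid binding protein of peripheral myelin, and Pmp22 a membrane protein of compact myelin whose gene is also expressed outside nerve. Prx encodes periaxin, a scaffold on the outer Schwann cell membrane that binds the dystroglycan complex through Drp2. Mag encodes an adhesion protein of the membrane next to the axon. Ngfr encodes p75, the low-affinity neurotrophin receptor.

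The label of these genes was checked against other markers, which bear on the cells present and do not place each transcript in a cell type. Transcripts of Sox10, S100b and Erbb3, which mark the Schwann lineage, were found in all 4 muscles, at 6-month medians of 4.77, 17.6 and 4.06 CPM in the diaphragm and 1.58, 3.10 and 1.79 CPM in the tibialis anterior. CPM are read counts of a gene relative to a fixed library total, scaled by the trimmed mean of M values (TMM) within a muscle unless stated otherwise, and not divided by gene length. Oligodendrocytes, the myelinating glia of the brain, also express Mbp and Mag. Their 4 markers summed to at most 0.355 CPM in any 6-month library of the 4 muscles, and to at most 1.19 CPM at 27 months, the latter in the soleus. Beside Mag these sums are not small in the soleus. There the sum reached 0.293 CPM at 6 months, and Mag reached 0.308 CPM at 6 months and 0.679 CPM at 27 months. The source of Mag in the soleus is therefore not settled by these markers. In the gastrocnemius Mobp, Olig2 and Opalin never exceeded 3 counts.

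The sequences just upstream of the transcription start are shown for Prx and Pmp22, a pair of myelin genes whose levels had a different order over the 4 muscles. Both come from RefSeq on the rat build GRCr8, a later build than the one used for counting. They cover the 250 bases before the start, at chr1:91914171-91914420 (plus strand) for Prx and chr10:48294682-48294931 (plus strand) for Pmp22. Mag and Mbp also had RefSeq entries. Pmp2 and Ngfr had none.
Prx: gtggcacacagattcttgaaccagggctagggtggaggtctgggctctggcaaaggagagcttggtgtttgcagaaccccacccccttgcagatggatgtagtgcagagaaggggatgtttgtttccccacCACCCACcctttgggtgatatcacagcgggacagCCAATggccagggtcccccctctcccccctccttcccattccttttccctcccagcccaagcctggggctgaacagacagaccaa
Pmp22: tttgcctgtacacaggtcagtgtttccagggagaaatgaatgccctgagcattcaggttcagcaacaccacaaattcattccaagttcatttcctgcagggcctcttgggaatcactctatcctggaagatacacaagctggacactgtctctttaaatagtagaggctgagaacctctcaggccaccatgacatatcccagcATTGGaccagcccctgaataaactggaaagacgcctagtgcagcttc
Capitals mark matches, on either strand, to the motifs searched, none of which overlap another. These were ACAAAG and ACAATG (SOX core letters), GTGGGNG (EGR core letters), TATAAA and CCAAT. Prx held GTGGGNG on the opposite strand, 119 to 113 bases before the start, and CCAAT 85 to 81 bases before it. Pmp22 held CCAAT on the opposite strand, 47 to 43 bases before the start. Of all 33469 promoters of this length, 25.64% held GTGGGNG and 34.02% held CCAAT, so such matches are common. The matches are letters in a window and not measured sites.

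Library totals ran from 17555294 to 85316329 counts, with a median of 31879679. At this depth Mbp, Prx and Pmp22 were well measured, with a median of 422 Mbp counts per library in the diaphragm at 6 months. Pmp2 and Mag were near the limit of detection. At 6 months the median count of Pmp2 was 4.5 in the diaphragm and 14 in the gastrocnemius, and that of Mag was 11.5 in the diaphragm and 1 in the soleus, where 4 of 12 libraries held none. The filter on low counts kept all 6 genes in the diaphragm and 5 in each of the other muscles, where Mag was left out.

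Libraries that stood apart affected the myelin genes. Soleus 12 months replicate 1 had 43.6 CPM of Mbp, against 16.04 CPM in the next highest soleus library of any age, and 44.4 CPM of Prx, 6.06 CPM of Pmp2 (203 counts) and 209 CPM of Pmp22. All 5 myelin genes were highest there among the soleus libraries, while its Ngfr was not. Gastrocnemius 6 months replicate 7 had 22.7 CPM of Mbp, against 10.9 CPM in the next library, together with the highest Prx (15.5 CPM), Pmp22 (56.6 CPM) and Pmp2 (1.07 CPM) of that muscle. This second library belongs to the group that every later age was compared with. The called differences between muscles and the larger changes with age of the myelin genes in the gastrocnemius are therefore also given without it.

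The libraries also carry running numbers in their labels, which fall into 3 runs. All 73 gastrocnemius libraries, and no other, made up the first run. In each of the other muscles the third run held the 12 libraries of 12 months and 1 library more. What the numbers record is not stated. The gastrocnemius and its run cannot be told apart, nor can 12 months and the third run in the other muscles.

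**Figure D1:**
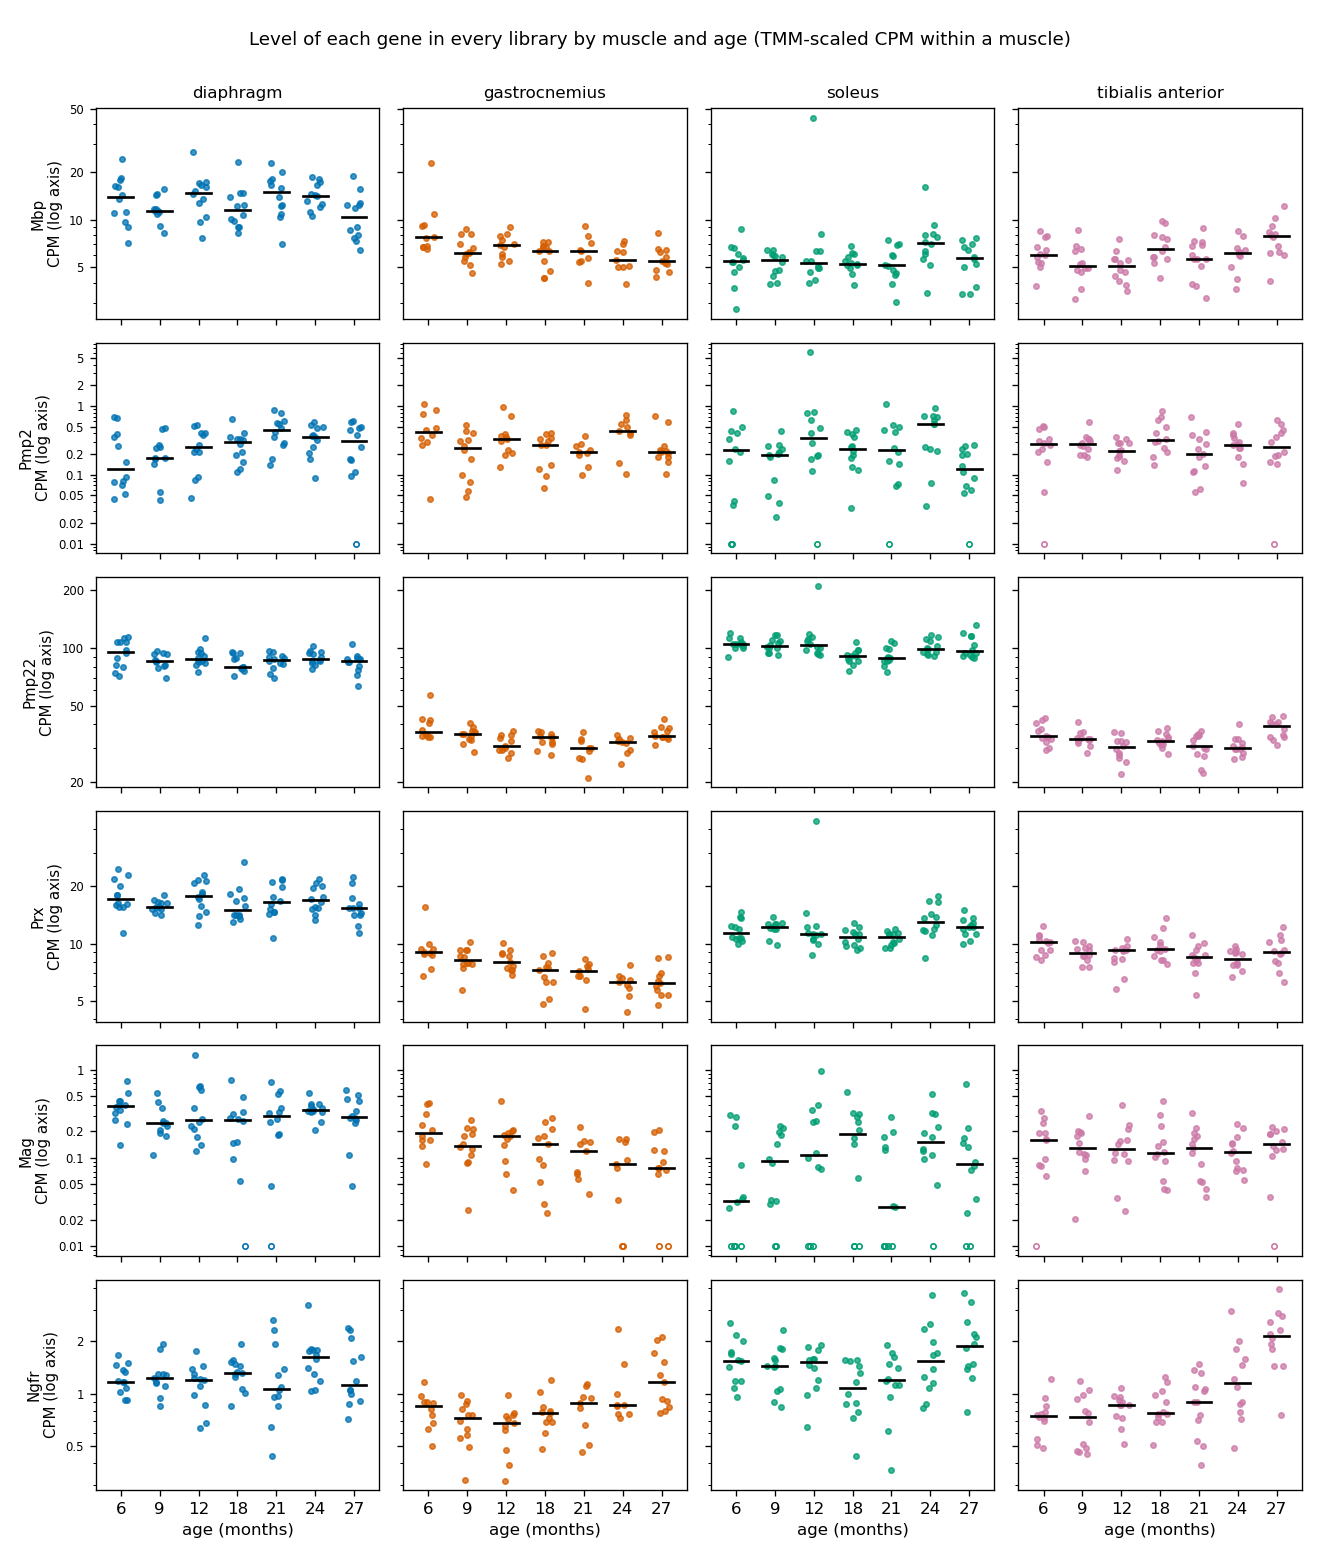
CPM of each gene (rows, log axes) in every library by age in months, in the 4 muscles (columns). Each dot is a library, black bars are medians, and open dots on the lowest line are libraries at 0; Ngfr climbs at 24 and 27 months in the tibialis anterior, from a median of 0.742 CPM at 6 months to 2.13 CPM, and single libraries stand high in the soleus at 12 months and the gastrocnemius at 6 months.

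The muscles were first compared at 6 months, when the levels describe the young adult state. For this the libraries of all muscles were filtered and scaled together, and 12784 genes were tested. All 6 genes were included. Mag passed this joint filter, though within a muscle it had passed in the diaphragm alone. Mbp was highest in the diaphragm, with 6.39, 12.3 and 21.4 CPM as the lowest, median and highest library. The gastrocnemius followed with 7.33, 8.65 and 25.0 CPM, the tibialis anterior with 4.39, 6.90 and 9.79 CPM, and the soleus with 2.43, 4.95 and 7.80 CPM. Mbp was lower in the soleus than in the diaphragm by 1.30 on the log2 scale (log2 difference -1.30 ± 0.17 SE, adjusted p = 2.2e-12) and than in the gastrocnemius (-0.99 ± 0.18, adjusted p = 2.5e-07, and -0.86 without gastrocnemius 6 months replicate 7). It was also lower in the tibialis anterior than in the diaphragm (-0.76 ± 0.16, adjusted p = 6.9e-06). Neighbours in this order did not differ by 1.5-fold. The gastrocnemius against the diaphragm gave -0.31 ± 0.16 (adjusted p = 0.066), and the tibialis anterior gave -0.45 ± 0.17 against the gastrocnemius and 0.54 ± 0.18 against the soleus.

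Pmp22 followed another order. Its medians were 93.6 CPM in the soleus (81.4 to 108.2) and 84.7 CPM in the diaphragm (63.7 to 100.9), against 40.8 CPM in the gastrocnemius (37.7 to 62.2) and 39.7 CPM in the tibialis anterior (33.8 to 49.9). No library of the soleus or diaphragm was as low as any of the tibialis anterior. Pmp22 was higher in the soleus than in the gastrocnemius by a log2 difference of 1.12 ± 0.07 (adjusted p = 1.6e-38), and lower in the tibialis anterior than in the soleus (-1.21 ± 0.07, adjusted p = 4.5e-46) and than in the diaphragm (-1.03 ± 0.07, adjusted p = 5.8e-36). The gastrocnemius and tibialis anterior differed by -0.09 ± 0.07 (adjusted p = 0.31). The soleus and diaphragm differed by 0.18 ± 0.07 (adjusted p = 0.015), under 1.5-fold, with overlapping ranges. Without gastrocnemius 6 months replicate 7 the difference between soleus and gastrocnemius was 1.17. Pmp22 was also called lower in the gastrocnemius than in the diaphragm, with a log2 difference of -0.99 without that library.

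Prx medians lay closer together. They were 15.2 CPM in the diaphragm, 11.6 CPM in the tibialis anterior, 10.2 CPM in the soleus and 9.91 CPM in the gastrocnemius. Of the 6 pairs, Prx passed the test in the gastrocnemius against the diaphragm (-0.63 ± 0.11, adjusted p = 4.0e-08, and -0.70 without gastrocnemius 6 months replicate 7). The 3 limb muscles did not differ from one another past the threshold, with log2 differences from 0.05 to 0.15. The soleus fell just short of 1.5-fold against the diaphragm (-0.58 ± 0.10, adjusted p = 8.2e-08).

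Mag was lowest in the soleus, with a median of 0.029 CPM (0 to 0.277), against 0.341 CPM in the diaphragm (0.124 to 0.656), 0.218 CPM in the gastrocnemius and 0.183 CPM in the tibialis anterior. Its log2 difference between soleus and diaphragm was -2.79 ± 0.49 (adjusted p = 1.3e-07), and between soleus and gastrocnemius -2.35 ± 0.52 (adjusted p = 1.8e-05). These rest on few counts, with 34 Mag counts over the 12 soleus libraries and 147 over the 12 diaphragm libraries. Within a muscle Mag passed the filter only in the diaphragm, where its median was highest, so its p-values here are not read as support. Pmp2 was highest in the gastrocnemius, with a median of 0.468 CPM (0.052 to 1.18), and differed there from the diaphragm (1.32 ± 0.46, adjusted p = 0.0076) and the soleus (-1.57 ± 0.48 for the soleus against it, adjusted p = 0.0018). Without gastrocnemius 6 months replicate 7 these differences were 1.19 and -1.44, and that of Mag between soleus and gastrocnemius -2.27.

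Ngfr had its highest median in the soleus. The medians were 1.37 CPM in the soleus (0.849 to 2.26), 1.03 CPM in the diaphragm, 0.953 CPM in the gastrocnemius and 0.849 CPM in the tibialis anterior, and the ranges overlapped in every pair. Ngfr was higher in the soleus than in the gastrocnemius by a log2 difference of 0.59 ± 0.21 (adjusted p = 0.0087), which was 0.56 without gastrocnemius 6 months replicate 7 and then under 1.5-fold. It was lower in the tibialis anterior than in the soleus (-0.67 ± 0.21, adjusted p = 0.0021). In all, 5 of the 6 genes passed the test between gastrocnemius and soleus, where 45.4% of all genes did and where muscle and run coincide, and none between gastrocnemius and tibialis anterior (17.3% of all genes, with 1 of the 6 at an adjusted p under 0.05). The other pairs gave 3 genes for diaphragm and gastrocnemius (37.3%), 2 for diaphragm and soleus (23.9%), 3 for diaphragm and tibialis anterior (35.1%) and 3 for soleus and tibialis anterior (42.9%). Mag is among the genes counted in every pair with the soleus and in diaphragm and tibialis anterior.

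**Figure D2:**
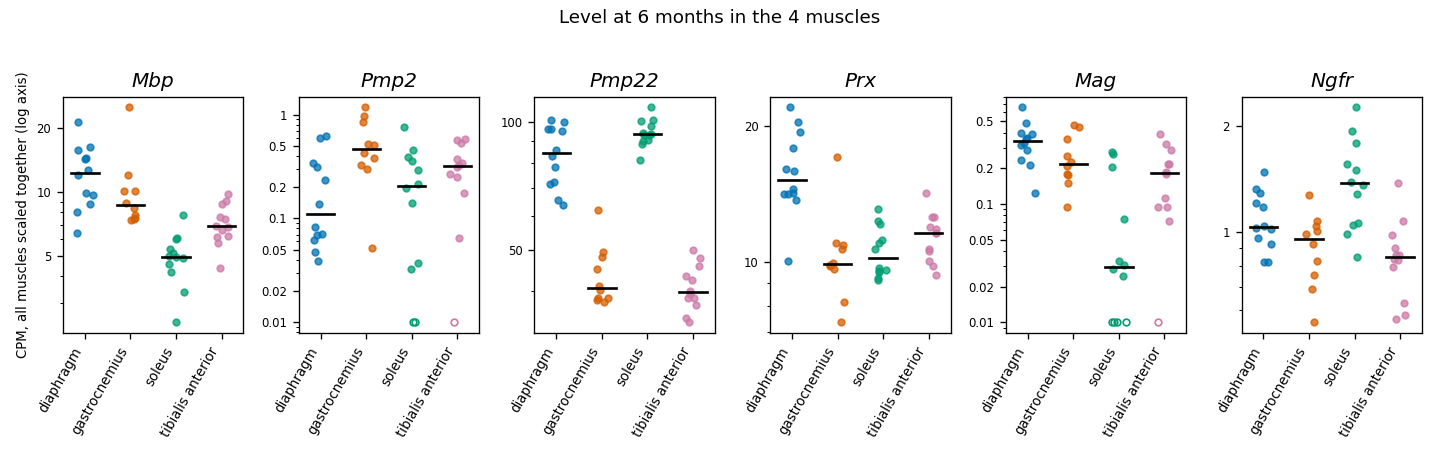
CPM at 6 months (log axes, all muscles scaled together) of each gene in the 4 muscles. Dots are libraries, black bars medians and open dots libraries at 0; Pmp22 is high in the diaphragm and soleus, and Mbp and Mag are lowest in the soleus, where the Mbp median is 4.95 CPM.

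Each later age was then compared with 6 months within a muscle, to ask when these transcripts changed. Calls required a change over 1.5-fold together with an adjusted p below 0.05 (Benjamini-Hochberg, over all genes of a comparison). None of the 6 genes was called at 9, 12, 18 or 21 months in any muscle by limma-voom, although 22 of 84 tests had an unadjusted p under 0.05 and 12 an adjusted p under 0.05. The shares of all genes called at 9, 12, 18 and 21 months were 0.108%, 0.532%, 2.25% and 1.68% in the diaphragm. They were 0.143%, 0.885%, 4.32% and 5.81% in the gastrocnemius. In the soleus they were 0.123%, 0.353%, 2.84% and 2.61%, and in the tibialis anterior 0.00851%, 0.196%, 5.45% and 6.47%. At 24 months Ngfr was called in the tibialis anterior, where 14.5% of all genes were, and none was called in the diaphragm (2.68%), gastrocnemius (18.8%) or soleus (6.51%). At 27 months the called genes were Mbp and Ngfr in the gastrocnemius, where 22.8% of all genes were called, and Ngfr in the tibialis anterior (27.6%). None was called at 27 months in the diaphragm (7.52%) or soleus (15.0%). In the diaphragm 2 genes and in the soleus none had an unadjusted p under 0.05 at 27 months, and neither edgeR nor DESeq2 called any there at any age. In the gastrocnemius edgeR and DESeq2 each made 4 calls over 9 to 24 months and 3 calls at 27 months. The percentages given here are for limma-voom. Shares of all genes under edgeR and DESeq2 were not worked out, so these calls cannot be set against a background. The median log2 change of the tested genes at 27 months was -0.51 in the gastrocnemius, beside 0.042 for all genes, and -0.17 in the diaphragm, beside 0.0026. In the soleus it was 0.0087 (all genes 0.019), and in the tibialis anterior 0.088 (all genes 0.015).

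In the gastrocnemius Mbp was the myelin gene called at 27 months, and it fell. Mbp had 6.52, 7.75 and 22.7 CPM as the lowest, median and highest library at 6 months. At 27 months these were 4.38, 5.51 and 8.28 CPM. The 27-month libraries fell below every 6-month library in 9 of 11 cases, and the other two overlapped them. The log2 change was -0.59 ± 0.14 (adjusted p = 0.00019), on the border of 1.5-fold. It was -0.46 (adjusted p = 0.0008) without gastrocnemius 6 months replicate 7, and then not called. Leaving out 6 months replicate 0, 2 or 3, or 27 months replicate 3, 4, 5, 8, 9 or 10, also took it just under 1.5-fold, with changes of -0.54 to -0.58. With scaling by total counts, which moved the median of all genes up by 0.28, the change was -0.31 and not called. Mbp was already at a median of 6.21 CPM at 9 months and 5.58 CPM at 24 months (-0.58 ± 0.15, adjusted p = 0.0007, and -0.45 without gastrocnemius 6 months replicate 7).

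Prx values in the gastrocnemius were lower at 27 months by less than 1.5-fold. It had 6.72, 8.99 and 15.5 CPM at 6 months and 4.76, 6.21 and 8.46 CPM at 27 months. All 11 libraries at 27 months lay below the 6-month median, and 7 lay below every 6-month library. The log2 change of -0.51 ± 0.11 (adjusted p = 2.3e-05) was under 1.5-fold and so not called, and it was -0.44 (adjusted p = 0.00013) without gastrocnemius 6 months replicate 7. At 24 months it was -0.56 ± 0.11 (adjusted p = 3.1e-05), and -0.48 without that library. Prx medians went from 8.99 CPM through 8.18, 7.98, 7.27, 7.13 and 6.31 to 6.21 CPM over the 7 ages.

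Pmp22 had its lowest gastrocnemius median at 21 months. The median was 36.6 CPM at 6 months (34.2 to 56.6), 29.9 CPM at 21 months and 34.7 CPM at 27 months (31.1 to 42.6). The log2 change was -0.41 at 21 months (adjusted p = 3.7e-05), -0.31 ± 0.08 at 24 months (adjusted p = 0.00036) and -0.12 ± 0.07 at 27 months (adjusted p = 0.14). None reached 1.5-fold. Without gastrocnemius 6 months replicate 7 these were -0.35, -0.25 and -0.064. With scaling by total counts the 27-month change had the opposite sign, 0.16.

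The 2 rare transcripts gave less certain values in the gastrocnemius. Pmp2 had a median of 0.412 CPM at 6 months (0.045 to 1.07) and 0.212 CPM at 27 months (0.101 to 0.710), with a log2 change of -0.73 ± 0.38 (adjusted p = 0.089), or -0.61 without gastrocnemius 6 months replicate 7. Pmp2 was called under 4 of 10 alternatives. These were edgeR (-0.87, adjusted p = 0.029), DESeq2 (-0.87, adjusted p = 0.028), sample quality weights (-0.97, adjusted p = 0.0077) and the replicate number as a block (-0.83, adjusted p = 0.0498). It was also called without 6 months replicate 4 (-1.11) or 27 months replicate 7 (-0.88). Mag summed to 87 counts over 10 libraries at 6 months and to 39 counts over 11 libraries at 27 months, when 2 libraries held none. Mag did not pass the filter on low counts. Fitted without that filter its change was -1.46 ± 0.40 (adjusted p = 0.0016). Of the 11 libraries at 27 months, 6 lay below every 6-month library.

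In the other muscles the myelin genes stayed under the threshold at 27 months. In the diaphragm, Mbp went from a median of 13.9 CPM (7.18 to 24.1) to 10.4 CPM (6.40 to 18.7), with a log2 change of -0.34 ± 0.17 (adjusted p = 0.089) and nearly full overlap. Pmp22 was lower by a small step (-0.16 ± 0.07, adjusted p = 0.034), from a median of 95.7 CPM to 85.7 CPM. Prx and Mag had changes of -0.18 and -0.37, and Pmp2 of 0.46 with a standard error of 0.41, none past the threshold.

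In the soleus, Mbp had medians of 5.51 CPM at 6 months and 5.74 CPM at 27 months, a log2 change of 0.0087 ± 0.21. Prx and Pmp22 had changes of 0.035 ± 0.11 and -0.039 ± 0.07. At 24 months the soleus Mbp median was 7.12 CPM and the highest library 16.04 CPM, with a change of 0.39 ± 0.20 (adjusted p = 0.14). At 12 months the changes were 0.28 for Mbp and 1.12 for Pmp2 with the library that stood apart included, and none of the genes was called with or without it.

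In the tibialis anterior, Mbp had 3.82, 6.00 and 8.49 CPM at 6 months and 4.12, 7.87 and 12.2 CPM at 27 months. Of the 12 old libraries 11 lay above the 6-month median and 3 above every 6-month library. The log2 change was 0.27 ± 0.14 (adjusted p = 0.074). With scaling by total counts, which moved the median of all genes up by 0.32 in this muscle, it was 0.61 and called. Prx had medians of 10.2 CPM and 9.03 CPM, a change of -0.17 ± 0.09 (adjusted p = 0.072) whose sign was opposite with total counts (0.17). Pmp22 had 34.7 CPM and 38.9 CPM, a change of 0.09 ± 0.07. Prx was lower at 24 months (-0.26 ± 0.08, adjusted p = 0.0064), when all 12 libraries lay below the 6-month median, though not by 1.5-fold.

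The receptor gene Ngfr rose in the tibialis anterior, with the largest change at 27 months among the genes that passed the filter on low counts in each muscle. It had 0.490, 0.742 and 1.21 CPM as the lowest, median and highest library at 6 months. At 24 months these were 0.492, 1.15 and 2.95 CPM, and at 27 months 0.755, 2.13 and 3.92 CPM. All 12 libraries at 27 months lay above the 6-month median and 11 lay above every 6-month library, while at 24 months 6 of 12 did. The log2 change was 0.77 ± 0.21 at 24 months (adjusted p = 0.0015) and 1.45 ± 0.20 at 27 months (adjusted p = 1.1e-09), a 2.73-fold rise. Without any single library it stayed between 1.38 and 1.55 and was called, but with a Schwann cell covariate, described further on, it was 0.32 and not called. Under the covariate first planned, which held genes not reported here, it was called, so the call depends on which genes make up the covariate. At 18 and 21 months the medians, 0.774 and 0.896 CPM, lay within the 6-month range.

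In the gastrocnemius Ngfr was higher by less. It had 0.502, 0.847 and 1.16 CPM at 6 months and 0.775, 1.17 and 2.09 CPM at 27 months, and 6 of 11 old libraries lay above every young one. The log2 change of 0.60 ± 0.19 (adjusted p = 0.0039) was just over 1.5-fold. It dropped under that bound without 6 months replicate 2, 3 or 7 (0.53, 0.57 and 0.57) or without 27 months replicate 0, 6, 7 or 9 (0.47, 0.56, 0.57 and 0.54). In the soleus the medians were 1.54 CPM and 1.87 CPM (0.32 ± 0.20, adjusted p = 0.17), and in the diaphragm 1.17 CPM and 1.11 CPM (0.07 ± 0.17, adjusted p = 0.76). The diaphragm libraries at 27 months spread both ways, with 3 above and 3 below every 6-month library.

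**Figure D3:**
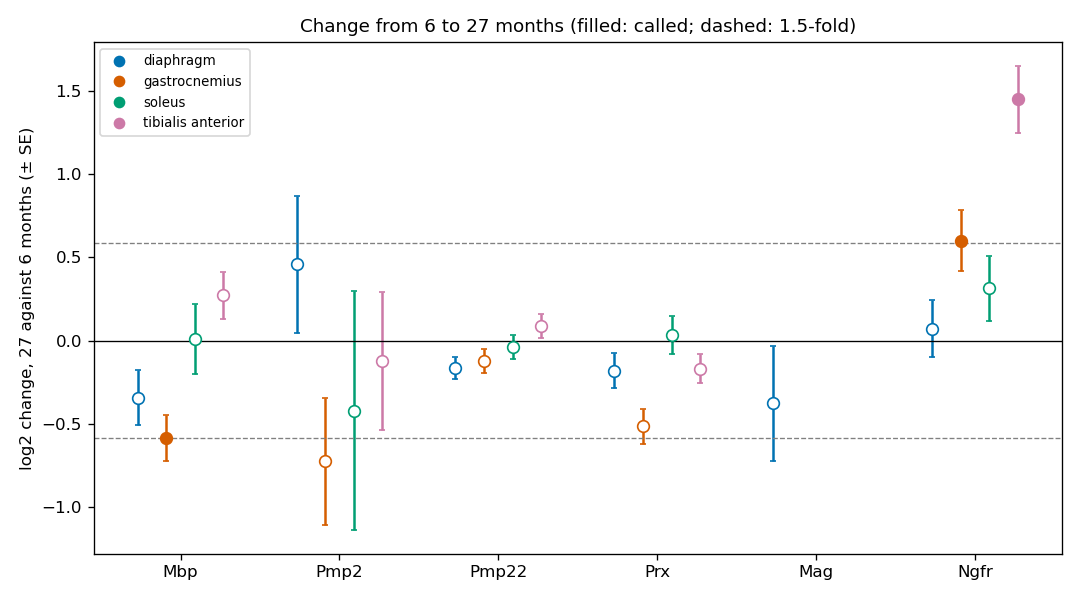
log2 change from 6 to 27 months with its standard error for each gene (horizontal axis) in the 4 muscles (colours). Filled points were called, dashed lines mark 1.5-fold, and Mag passed the filter in the diaphragm alone; Ngfr of the tibialis anterior stands at 1.45, and Mbp of the gastrocnemius lies on the lower line at -0.59.

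The counts of Ngfr and the myelin genes were also set against each other within each library, which is free of the scaling. In the tibialis anterior the ratio of Ngfr to Mbp counts had a median of 0.112 at 6 months (0.058 to 0.240) and 0.280 at 27 months (0.126 to 0.505), and 8 of 12 old libraries lay above every young one. In the gastrocnemius it went from 0.110 (0.028 to 0.174) to 0.182 (0.118 to 0.462), with 8 of 11 above. In the soleus it was 0.291 at 6 months and 0.372 at 27 months, and no old library lay above the young range. In the diaphragm it was 0.094 and 0.122, with 5 of 12 above. The ratio of Prx to Mbp counts in the gastrocnemius was 1.04 at 6 months and 1.14 at 27 months, and no old library lay above the young range. In the tibialis anterior that ratio had medians of 1.61 and 1.15. These ratios are given as descriptions without a test.

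Whether the change from 6 to 27 months differed between muscles was tested in the fit of all libraries. Ngfr changed more in the tibialis anterior than in the diaphragm (difference of log2 changes 1.33 ± 0.27, adjusted p = 1e-05), the soleus (1.15 ± 0.26, adjusted p = 1e-04) and the gastrocnemius (0.85 ± 0.29, adjusted p = 0.019). The last of these differences was 0.88 without gastrocnemius 6 months replicate 7. Mbp changed differently in the tibialis anterior and the gastrocnemius (0.86 ± 0.25, adjusted p = 0.0037), and the difference was 0.73 (adjusted p = 0.016) without gastrocnemius 6 months replicate 7. For Mag the fit gave 2.08 ± 0.74 (adjusted p = 0.017) in the soleus against the gastrocnemius. Neither muscle passed the filter on low counts for Mag by itself, so no conclusion is drawn from this call. The call was lost with the replicate number as a block (1.58, adjusted p = 0.058). The difference was 2.003 without gastrocnemius 6 months replicate 7. It rests on 34 and 51 counts in the soleus groups and 87 and 39 in the gastrocnemius groups.

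The shares of all genes called in these tests were 20.3% for diaphragm and tibialis anterior, 15.8% for soleus and tibialis anterior, 7.32% for gastrocnemius and tibialis anterior, and 14.5% for gastrocnemius and soleus, against 1, 1, 2 and 1 of the 6 genes. The gene called between gastrocnemius and soleus was Mag, which passed the filter in neither muscle by itself. No gene of the group was called between diaphragm and gastrocnemius (21.6% of all genes) or diaphragm and soleus (11.9%) by limma-voom or edgeR, with 1 and 0 of the 6 at an unadjusted p under 0.05. Prx fell short of 1.5-fold between gastrocnemius and soleus (0.54 ± 0.16, adjusted p = 0.0038), as did Mbp between diaphragm and tibialis anterior (0.57 ± 0.22, adjusted p = 0.026). These comparisons share their libraries and are not independent of one another.

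The course over all 7 ages was classed with the Bayesian information criterion (BIC) as no trend, a straight line or a logistic step. Mbp and Prx of the gastrocnemius followed falling lines of -0.26 and -0.32 log2 units per 12 months (-0.21 and -0.29 without gastrocnemius 6 months replicate 7). Ngfr of the gastrocnemius followed a rising line of 0.39 log2 units per 12 months, and Ngfr of the tibialis anterior a late step whose midpoint lay at 25 months. Of the genes tested no other had a trend. The genes with a trend were 3 of 5 in the gastrocnemius, where 55.1% of all genes had one, and 1 of 5 in the tibialis anterior (64.9%). In the diaphragm and soleus none had a trend, against 29.6% and 40.2% of all genes.

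Other genes of the same biology were read from lists. Of 15 listed genes of myelinating Schwann cells, 13 were tested in the gastrocnemius, and 4 fell and 3 rose at 27 months. Those that fell were Drp2, the partner of periaxin (-1.04 ± 0.18, adjusted p = 6.7e-07), Nfasc, which encodes an adhesion protein of the node of Ranvier (-1.60 ± 0.21), Pllp, a myelin membrane protein (-0.83 ± 0.27), and Fa2h, which makes hydroxylated myelin lipids (-0.72 ± 0.29). Those that rose were Cnp, Gldn and Egr2. Cnp and Egr2 are also expressed outside Schwann cells. For all of these genes, those that fell as well as those that rose, the cell of origin is not known from bulk RNA. The list median was -0.09, beside 0.04 for all genes, of which 7.76% fell and 15.1% rose.

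The same list was read in the other muscles, and the counts were not tested between muscles. In the diaphragm 1 of 14 tested genes, Gldn, rose (0.71 ± 0.13) and none fell, in the soleus 3 of 14 rose and 1 fell, and in the tibialis anterior 3 of 13 rose and 1 fell. In both of these the genes that rose were Cnp, Gldn and Egr2. Of all genes 10.4% fell in the tibialis anterior, 4.25% in the diaphragm and 5.78% in the soleus. The shares that rose were 17.2%, 3.27% and 9.21%, in the same order. The soleus gene that fell was Gjb1, a gap junction gene of Schwann cells, with a median of 0.246 CPM at 6 months and 0.015 CPM at 27 months and a highest library of 4.63 CPM at 6 and 3.91 CPM at 27 months (-2.21 ± 0.86, adjusted p = 0.025). Cnp rose in the gastrocnemius, soleus and tibialis anterior, by 1.65, 1.85 and 1.75 on the log2 scale, Egr2 by 1.37, 1.15 and 0.95, and Nfasc fell in the tibialis anterior too (-1.47 ± 0.24).

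Genes of the Schwann lineage that are not specific to myelin were read next. Of the 7 tested, 4 rose in the tibialis anterior, where 17.2% of all genes did, namely Erbb3, the neuregulin receptor (1.18 ± 0.14, adjusted p = 1.6e-11), S100b, a calcium-binding protein (1.08 ± 0.14, adjusted p = 6.0e-11), Sox10, the master transcription factor of the lineage (0.75 ± 0.12, adjusted p = 1.1e-07), and Cdh19, an adhesion gene (0.67 ± 0.18, adjusted p = 0.00047). Sox10 had 1.04, 1.58 and 2.22 CPM at 6 months and 1.76, 2.71 and 4.92 CPM at 27 months. The median change of the list was 0.67, beside 0.02 for all genes. In the gastrocnemius 2 of 7 rose, Erbb3 (0.77 ± 0.13) and Cdh19 (0.65 ± 0.25), and Sox10 had -0.13 ± 0.18. In the soleus S100b rose (0.80 ± 0.15), and in the diaphragm Scn7a, a sodium channel gene of non-myelinating Schwann cells, fell (-0.68 ± 0.12). Over all genes 15.1% rose in the gastrocnemius and 9.21% in the soleus, and 4.25% fell in the diaphragm.

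The changes were also fitted with a Schwann cell covariate. When the mean log2 level of Sox10, S100b, Erbb3 and Cdh19 of each library was added to the model, the log2 change of Ngfr in the tibialis anterior was 0.32 ± 0.26 (adjusted p = 0.30), against 1.45 without it, and was no longer called. In the gastrocnemius the Ngfr change was 0.33 with the covariate (adjusted p = 0.13) and not called either. The gastrocnemius changes of Mbp (-0.90 ± 0.13, adjusted p = 2.3e-08) and Prx (-0.64 ± 0.11, adjusted p = 2.0e-06) were both called with it. Pmp2 was called in the soleus (-1.35 ± 0.53, adjusted p = 0.029). With the covariate the Mbp change was -0.30 in the tibialis anterior and -0.56 in the soleus, neither called. All 4 genes of the covariate themselves rose with age in the tibialis anterior, and the covariate was chosen after the data were seen. The one first planned gave the same calls except for Ngfr and Pmp2 of the tibialis anterior, both called under it.

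Of the repair Schwann cell list, 12 genes were listed in the files and 6 or 7 were tested in each muscle. In the tibialis anterior 6 of 7 rose and none fell, in the soleus 3 of 7, in the gastrocnemius 2 of 6 and in the diaphragm 1 of 6. Over all genes the shares that rose were 17.2%, 9.21%, 15.1% and 3.27% in these muscles, in the same order. Artn, a ligand of the GDNF family, rose in the gastrocnemius (3.81 ± 0.37), soleus (4.47 ± 0.72) and tibialis anterior (3.69 ± 0.48), from 6-month medians of 0.138, 0.014 and 0.032 CPM to 2.04, 0.954 and 0.538 CPM. At such low starting levels the fitted size depends on the prior count. Gdnf, a survival factor for motor neurons, rose in the tibialis anterior (2.75 ± 0.43), and L1cam, an adhesion gene, rose there as well (0.86 ± 0.11). Ncam1 rose in all 4 muscles, with log2 changes of 3.56 in the tibialis anterior, 1.81 in the soleus, 2.78 in the gastrocnemius and 0.73 in the diaphragm. Ncam1 is also a gene of denervated muscle fibres.

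Neurotrophins and their receptors, the ligands and partners of Ngfr, were listed as 9 genes. Ntf4, the neurotrophin-4 gene, fell in all 4 muscles, with -1.43 ± 0.25 in the tibialis anterior, -0.94 ± 0.37 in the soleus, -1.28 ± 0.17 in the gastrocnemius and -0.88 ± 0.17 in the diaphragm. Bdnf, the gene of brain-derived neurotrophic factor, rose in the gastrocnemius (1.85 ± 0.46) and tibialis anterior (1.05 ± 0.30) and fell in the soleus (-0.68 ± 0.30, adjusted p = 0.048). Bdnf levels at 6 months were 15.5 CPM in the soleus and 0.869 CPM in the tibialis anterior. Sort1 and Sorcs2, genes of the sortilin family that pair with p75, rose in the soleus (1.14 ± 0.12 and 0.92 ± 0.12), where Ngfr did not pass the test. Of the genes tested, 2 of 8 rose and 1 fell in the tibialis anterior, and 2 of 9 rose and 2 fell in the soleus. In the gastrocnemius 1 of 8 rose and 1 fell, and in the diaphragm 2 of 9 fell and none rose. Over all genes 17.2% rose and 10.4% fell in the tibialis anterior, and 9.21% rose and 5.78% fell in the soleus. The same shares were 15.1% and 7.76% in the gastrocnemius, and 3.27% and 4.25% in the diaphragm.

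**Figure D4:**
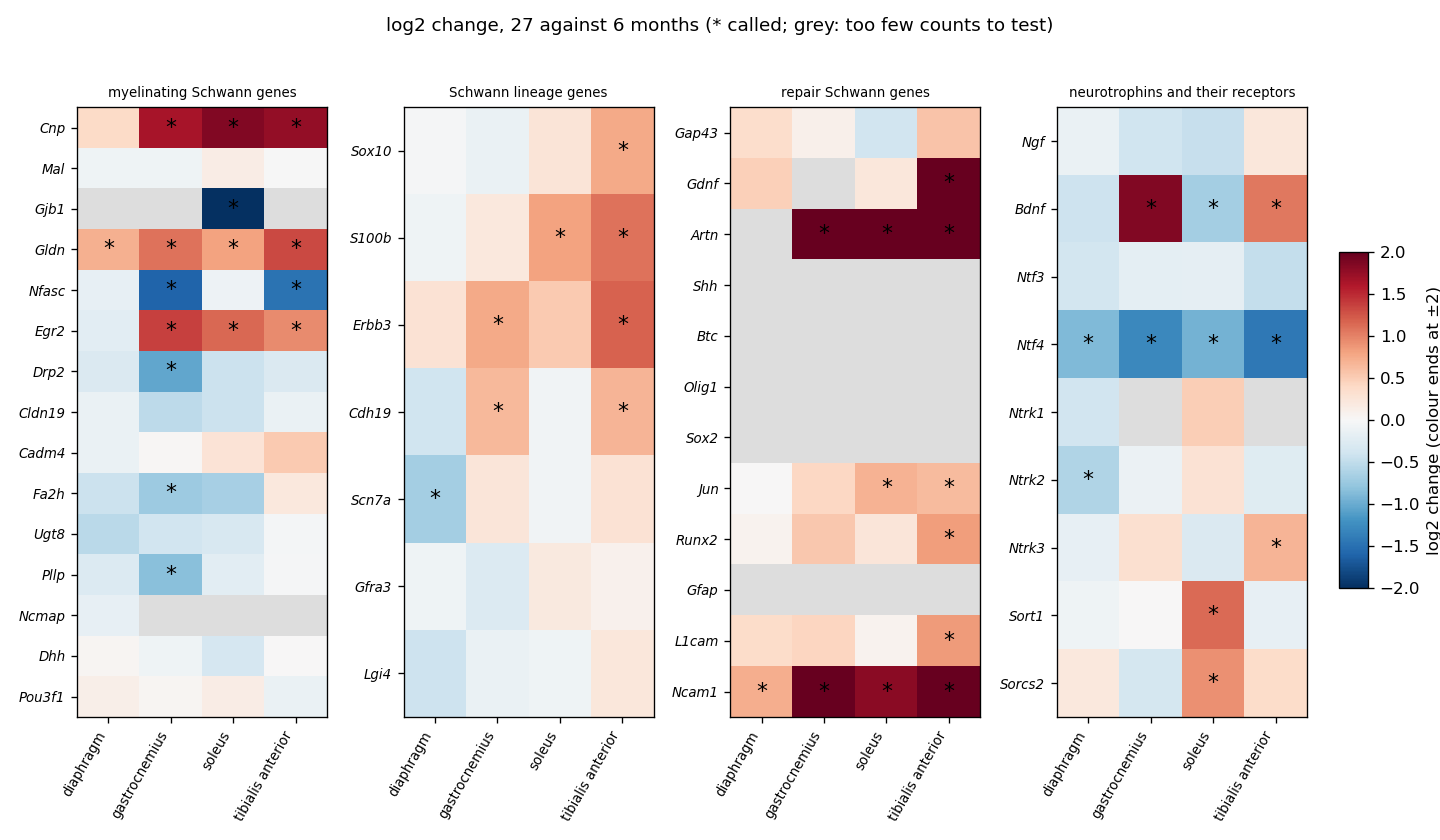
log2 change from 6 to 27 months (colour, red higher and blue lower at 27 months, ends at ±2) of genes in lists of myelinating, lineage and repair Schwann cells and of neurotrophins and their receptors, in the 4 muscles (columns). Stars mark called genes and grey marks genes with too few counts; Drp2 and Nfasc fell in the gastrocnemius, and Sox10, S100b, Erbb3 and Cdh19 rose in the tibialis anterior.

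Markers of other cells moved in the same comparisons. All 6 macrophage genes rose in the gastrocnemius and tibialis anterior, where their summed level went from 68.8 to 110 CPM and from 34.9 to 54.9 CPM at 6 months to 134 to 220 CPM and 74.0 to 141 CPM at 27 months. In the soleus 1 of 6 rose and in the diaphragm none did. All 6 genes of denervated muscle fibres rose in each muscle, with list medians of 5.09 in the tibialis anterior, 2.14 in the soleus, 4.08 in the gastrocnemius and 1.56 in the diaphragm. Of 5 genes listed for nerve sheath cells other than Schwann cells, 3 rose in the tibialis anterior and 2 in the gastrocnemius. Their sum in the tibialis anterior was 49.9 to 63.8 CPM at 6 months and 89.1 to 145 CPM at 27 months. This list holds Itgb4, which ran close to Mbp, Prx and Pmp22 across libraries, so it does not leave out Schwann cells. Of the axon genes tested, 1 of 3 rose in the tibialis anterior, 3 of 5 rose and 1 fell in the soleus, 3 of 4 rose and 1 fell in the gastrocnemius, and 4 of 5 rose in the diaphragm. Adipocyte genes rose in 4 of 5 cases in the 3 limb muscles and in none in the diaphragm. Over all genes 17.2% rose in the tibialis anterior, 9.21% in the soleus, 15.1% in the gastrocnemius and 3.27% in the diaphragm.

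The remaining lists were counted in the same way. Of 4 muscle fibre genes, 3 fell in the tibialis anterior and 2 in the gastrocnemius, and 1 rose in the diaphragm and 1 in the soleus. Of 5 endothelial genes 1 fell in each limb muscle and none in the diaphragm. Of 5 fibroblast genes none fell in the tibialis anterior, 1 fell in the soleus and in the gastrocnemius, and 3 fell in the diaphragm. Of 4 mural cell genes 1 fell in every muscle, and 1 rose in the gastrocnemius and 1 in the tibialis anterior. Over all genes 10.4% fell in the tibialis anterior, 5.78% in the soleus, 7.76% in the gastrocnemius and 4.25% in the diaphragm. The single oligodendrocyte gene with enough counts, Mog, rose in the diaphragm (1.95 ± 0.43) and soleus (3.54 ± 0.62), from 6-month medians of 0.053 and 0.014 CPM. The part of these cells in the results on Mbp, Prx and Ngfr was not tested.

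Finally, the genes were compared library by library within each muscle after the mean of each age had been removed. Mbp and Prx ran most closely together, with Pearson's r from 0.67 in the tibialis anterior to 0.84 in the diaphragm (73 to 85 libraries a muscle). In the soleus r was 0.79, and 0.57 without the 2 libraries farthest in Mbp. In the gastrocnemius it was 0.74, and 0.68 without 6 months replicate 7. Among the 11515 genes compared, those most like Mbp were Prx (mean r over the 4 muscles 0.76), Drp2 (0.73) and Dusp15, a phosphatase gene (0.65). Those most like Prx were Mbp (0.76), Drp2 (0.71) and Itgb4, an integrin gene (0.60). The rare transcripts also had Mbp and Drp2 near them, at lower values. Pmp2 was nearest to Mbp (0.45), Drp2 (0.42) and Apod, the apolipoprotein D gene (0.39), and Mag to Drp2 (0.29), Mbp (0.25) and Tsen34 (0.24).

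Neither Pmp22 nor Ngfr had Mbp or Drp2 among its 3 nearest genes. Pmp22 was nearest to Itgb4 (0.62), Ndrg1, a gene associated with an inherited neuropathy (0.62), and Apod (0.55), and its mean r with Mbp was 0.51. That r fell in the soleus from 0.50 to 0.14 without the 2 libraries farthest in Mbp, and in the gastrocnemius from 0.44 to 0.28 without 6 months replicate 7. By mean r Pmp22 was the gene of rank 10 for Mbp and of rank 9 for Prx. Ngfr was nearest to Lhfpl2 (0.46), Fbln1, a matrix gene (0.46), and Srgap2, a regulator of the cytoskeleton (0.46). Its mean r with Mbp was 0.18 and with Prx 0.16, the range with Mbp over the muscles being 0.10 to 0.29. By mean r with Ngfr, the 5 fibroblast genes had ranks 58 to 1525 and the 6 macrophage genes 84 to 951. The 7 Schwann lineage genes had ranks 149 to 4163. The cell of origin of Ngfr was not tested. These r describe the libraries and carry no test. Genes of a library share its depth and the makeup of its piece of muscle.

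**Figure D5:**
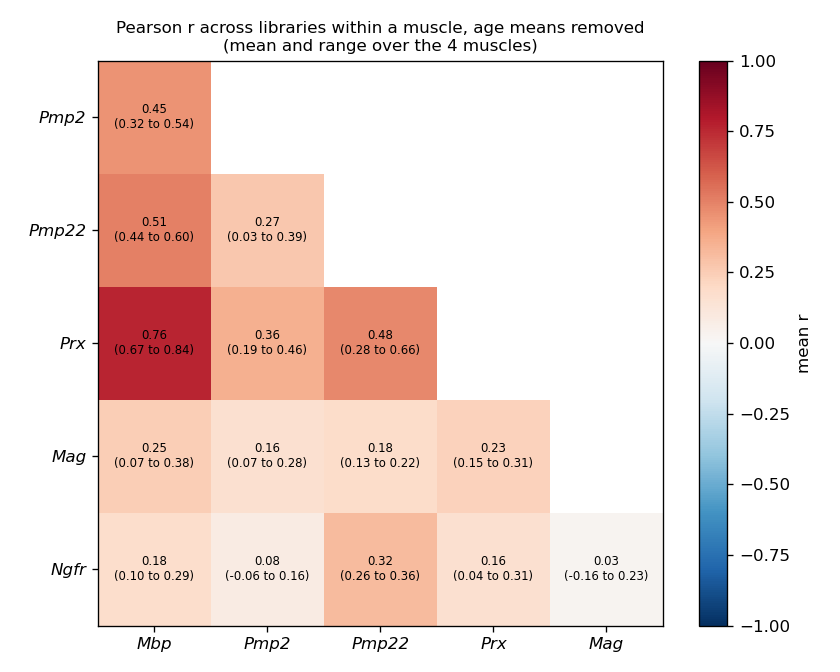
Pearson's r between each pair of the 6 genes across libraries of a muscle after removal of age means, as the mean and range over the 4 muscles (colour scale from -1 to 1). Mbp and Prx have the highest mean, 0.76, and Ngfr has low values with all others, the highest being 0.32 with Pmp22.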

How the data were processed

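The authors deposited raw counts per gene for each library, with no normalization. RNA was kept in RNAlater, depleted of ribosomal RNA and made into stranded paired-end libraries. Counts came from the ArrayStudio pipeline (version not given in the sources used here) on the rat B6.0 reference, with gene models the authors derived from RefSeq.

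Groups were read from the labels. Lines of repeated symbols were summed. Per muscle, genes were kept with filterByExpr by age (minimum count 10, minimum total count 15), scaled by TMM in edgeR 4.0.16 and fitted with all ages in limma-voom (limma 3.58.1, R 4.3.3), two-sided. Genes tested were 11754 in the tibialis anterior, 12175 in the soleus, 12035 in the diaphragm and 11865 in the gastrocnemius. A call needed a Benjamini-Hochberg adjusted p under 0.05 over all genes and over 1.5-fold. Log2 CPM used a prior count of 0.5. A trend needed a BIC gain over 6, and a logistic form a further gain over 2. edgeR quasi-likelihood and DESeq2 1.42.0 were alternatives. The fits were tested on simulated data.

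The genes and lists were chosen with earlier results of these data known. Named genes were the 6 genes, up to 4 called genes with the largest change in each of the lists of myelinating, lineage, repair and neurotrophin genes, and the 3 genes nearest to each of the 6. Some listed genes are not reported here and entered no list, covariate or likeness ranking. Gldn, Cdh19, Pllp and Fa2h were named after their values were seen, to complete counts of 5 or fewer.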

Additional observations from a re-analysis of the deposited data

Results flagged for a closer look

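Gastrocnemius 6 months replicate 7 lay far from the other 9 libraries of its group in 3 genes, with 22.7 CPM of Mbp against 10.9 CPM in the next library, 15.5 CPM of Prx against 9.95 CPM, and 56.6 CPM of Pmp22 against 42.6 CPM. Gastrocnemius 21 months replicate 7 was low in Prx, with 4.53 CPM against 6.39 CPM in the next of 9 libraries. Gastrocnemius 24 months replicate 7 was high in Ngfr, with 2.33 CPM against 1.47 CPM. Groups of over 10 libraries were not examined this way, so 18 gene and group pairs were, and about 1 in 20 such groups would be singled out by chance.

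Effects that differed between muscles by the test of the difference itself, each as the log2 change from 6 to 27 months in the second muscle minus that in the first, were 1.33 for Ngfr in diaphragm and tibialis anterior, 1.15 in soleus and tibialis anterior, and 0.85 in gastrocnemius and tibialis anterior. For Mbp in gastrocnemius and tibialis anterior the difference was 0.86, and for Mag in gastrocnemius and soleus 2.08. Neither of these last muscles passed the filter on low counts for Mag by itself.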

How the results depend on the processing

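The 68 single-gene results were the changes at 27 months of the genes tested, and any other difference with an adjusted p under 0.05. They were refitted under the alternatives, leave-outs of single libraries included. Of the values this gave, 1024 kept their direction and their side of the threshold. Of the rest, 57 were newly past the threshold, 41 no longer past it and 26 of opposite sign. The unchanged values include many leave-outs of single libraries. Most of the results changed their call or sign under some alternative. Part of this is built in. A result with an adjusted p under 0.05 but under 1.5-fold must pass the threshold once the fold bound is dropped. The Ngfr change in the tibialis anterior at 27 months was called under each of 11 alternatives, up to 1.75, except the Schwann cell covariate (0.32, adjusted p = 0.30). Depth limited Pmp2 and Mag, at a few counts a library.

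Counts of calls among the 6 genes moved as follows. Shares of all genes called under these settings were not worked out, here or in the next paragraph. The counts therefore show how calls depend on the setting and not whether they exceed a background. At 27 months, dropping the fold bound gave 1 in the diaphragm (0 before). In the gastrocnemius (2 before) total-count scaling gave 1 and Bonferroni 0, and leaving out single libraries gave 0 to 3. In the soleus (0 before) the Schwann cell covariate gave 1. In the tibialis anterior (1 before) total-count scaling gave 2 and the covariate 0. Over 9 to 24 months a gene is counted once for each age at which it was called. In this count the diaphragm (0 before) had 1 without the fold bound and 2 with sample quality weights. The gastrocnemius (0 before) had 1 with RLE factors, 2 without the filter, 4 with edgeR, 4 with DESeq2, 10 without the fold bound, 6 with weights and 1 with the replicate block. The soleus (0 before) had 2 without the fold bound. The tibialis anterior (1 before) had 0 with Bonferroni, 5 without the fold bound and 2 with weights.

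Differences between muscles in the change moved in diaphragm and gastrocnemius from 0 to 1 (total-count scaling, no fold bound, weights), and in diaphragm and tibialis anterior from 1 to 2 (RLE, total-count scaling, edgeR, no fold bound, weights). In gastrocnemius and soleus they moved from 1 to 2 (edgeR, no fold bound) or 0 (Bonferroni, replicate block). With Bonferroni they moved to 0 in gastrocnemius and tibialis anterior (2 before) and in soleus and tibialis anterior (1 before). Levels at 6 months moved from 3 to 5 with total-count scaling in diaphragm and gastrocnemius and in diaphragm and tibialis anterior, and from 2 to 4 without the fold bound in diaphragm and soleus. They moved from 5 to 2 with Bonferroni in gastrocnemius and soleus, from 0 to 1 without the fold bound or with weights in gastrocnemius and tibialis anterior, and from 3 to 1 with Bonferroni in soleus and tibialis anterior. Trends in the tibialis anterior moved from 1 to 3 with total-count scaling.

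Changes at 27 months that reversed sign were as follows, and the cause was not tested. In the soleus Mbp gave -0.0830 with weights and -0.56 with the covariate, Prx -0.26 with the covariate and Pmp22 0.11 with total-count scaling. In the tibialis anterior, with the covariate, Mbp gave -0.30 and Pmp22 -0.27, and with total-count scaling Prx gave 0.17. Pmp2 there gave 0.26 with total-count scaling, 0.055 without the filter, 0.036 with edgeR, 0.058 with DESeq2 and 0.25 with weights. In the gastrocnemius Pmp22 gave 0.16 with total-count scaling. Leaving out single libraries gave -0.090 to 0.085 for Mbp in the soleus, -0.018 to 0.12 for Ngfr in the diaphragm and -0.43 to 0.37 for Pmp2 in the tibialis anterior.

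The labels do not say that a replicate number marks an animal. Same-numbered libraries of 2 muscles deviated together on average (mean correlation 0.061 to 0.18, against -0.0159 to -0.0049 for other pairs) but not in every pair. The lowest correlations were between -0.62 and -0.26, and the fits without the block were kept. A shared rat does not require every pair to deviate together, so this does not show that the numbers are unpaired. The fits that were kept treat libraries of muscles that shared rats as independent. With the number as a block, Mag in gastrocnemius and soleus gave 1.58 (adjusted p = 0.058) and Pmp2 in the gastrocnemius -0.83 (adjusted p = 0.0498, called). A library was most like its own number in 13 of 72 to 43 of 84 cases, where group size alone gives about 6.92 for either, a hint from the data and not from the design. Leaving out gastrocnemius 6 months replicate 7 or soleus 12 months replicate 1 beyond the comparison with 27 months was chosen after seeing the data, as was the covariate, which replaced a planned one with genes not reported here. Under the planned one Ngfr and Pmp2 of the tibialis anterior were called.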
